A study of Mus musculus with 18 samples.

Results

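The nuclear genes of the mitochondrial respiratory chain and ATP synthase were examined in mouse colorectal tissue across the stages of colitis-associated carcinogenesis. A gene was included when a probe set annotated to it alone carried a symbol of the Ndufa, Ndufb, Ndufc, Ndufs or Ndufv, Sdha to Sdhd, Uqcr, Cox4 to Cox8 or Atp5 families. The rule found 81 genes among the 18193 genes with a probe set of their own, and each was read from its brightest probe set. By name, 35 belong to complex I, 4 to complex II, 8 to complex III, 17 to complex IV and 17 to complex V. Of the 81 genes, 77 passed the filter on dim signals and were among the 12877 genes tested. The other 4 were Ndufb4, Cox4i2 and Cox7b2, which lay above the median of the table on 0 of 18 arrays, and Cox8b, which did so on 2.

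Complexes I to IV of the inner mitochondrial membrane pass electrons from NADH and succinate by way of ubiquinone and cytochrome c to oxygen, and complex V uses the proton gradient they build to make ATP. Most subunits are nuclear genes, while the rest come from mitochondrial DNA, so the complexes are built from both genomes with the help of dedicated assembly factors. In the colon, mature epithelial cells rely heavily on this pathway to oxidise butyrate.

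All mice were male, of the outbred ICR stock, and 6 weeks old at the start. Azoxymethane (AOM), a colon carcinogen, was injected at 10 mg/kg on day 1. It was followed by dextran sulphate sodium (DSS), which damages the colonic epithelium, in the drinking water. The first DSS cycle ran from day 8 to day 14 at 2%, and the later ones ran at 1.5% from day 29 to 33 and from day 50 to 54. The groups of 3 arrays were normal mucosa (saline and water, day 14), inflamed mucosa (AOM and 1 DSS cycle, day 14), low grade dysplasia (LGD; AOM and 1 cycle, day 28), high grade dysplasia (HGD) at 6 weeks (AOM and 2 cycles, day 42), HGD at 8 weeks with active inflammation (AOM and 3 cycles, day 56) and carcinoma (AOM and 3 cycles, day 140). Because all normal mucosa came from day 14, stage, age and time since the last DSS cycle differ together in every later comparison, and they cannot be told apart. No group received AOM alone or DSS alone, and how lesions were separated from surrounding tissue is not given in the sources used here. The replicates are labelled as biological, but nothing says whether each is 1 mouse, so p-values refer to the spread between these samples. That spread is estimated within groups over all arrays together, not from the compared groups alone. All 5 comparisons with normal mucosa share the same 3 normal arrays.

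Values are log2(signal + 16), a scale that understates changes of dim genes, and every adjusted p below is from limma with Benjamini-Hochberg adjustment over the 12877 genes within a comparison. The array medians lay between 55.7 and 57.8 signal units. The defining markers of colonic epithelium were present in normal mucosa, where all 15 lay above the median of the table on every array. One LGD array, replicate 2, stood apart in RNA quality: its Gapdh 3′ probe set exceeded the 5′ one by 1.63 log2 units, against -0.08 to 0.15 on the other 17 arrays.

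Inflamed mucosa had less signal for most of the chain. Of the 77 members tested, 62 fell and 3 rose against normal mucosa, where 24.3% of all genes tested fell and 22.6% rose. The median change of the members was -0.46, a 1.38-fold decrease, against a median of 0.01 over all genes tested. All complexes took part: the median change was -0.41 in complex I (24 of 34 fell), -0.73 in complex II (4 of 4), -0.65 in complex III (8 of 8), -0.45 in complex IV (10 of 14) and -0.50 in complex V (16 of 17). Differences between the complexes were not tested, and the medians of complexes I and II shrank to -0.33 and -0.50 when the probe sets of a gene were averaged. With only probe sets that carry no s, x or a mark, which the manufacturer uses for probes that may bind several transcripts, 58 members were measured and 39 fell, against 24.3% of all genes tested on such probe sets.

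The fall was present on each inflamed array. The median difference of the members from the normal mean was -0.37, -0.53 and -0.51 on inflamed replicates 1, 2 and 3, and 0.05, -0.03 and -0.01 on the normal arrays. No complex overlapped between these groups: the highest inflamed value of any complex was -0.32 and the lowest normal value was -0.06.

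**Figure D1:**
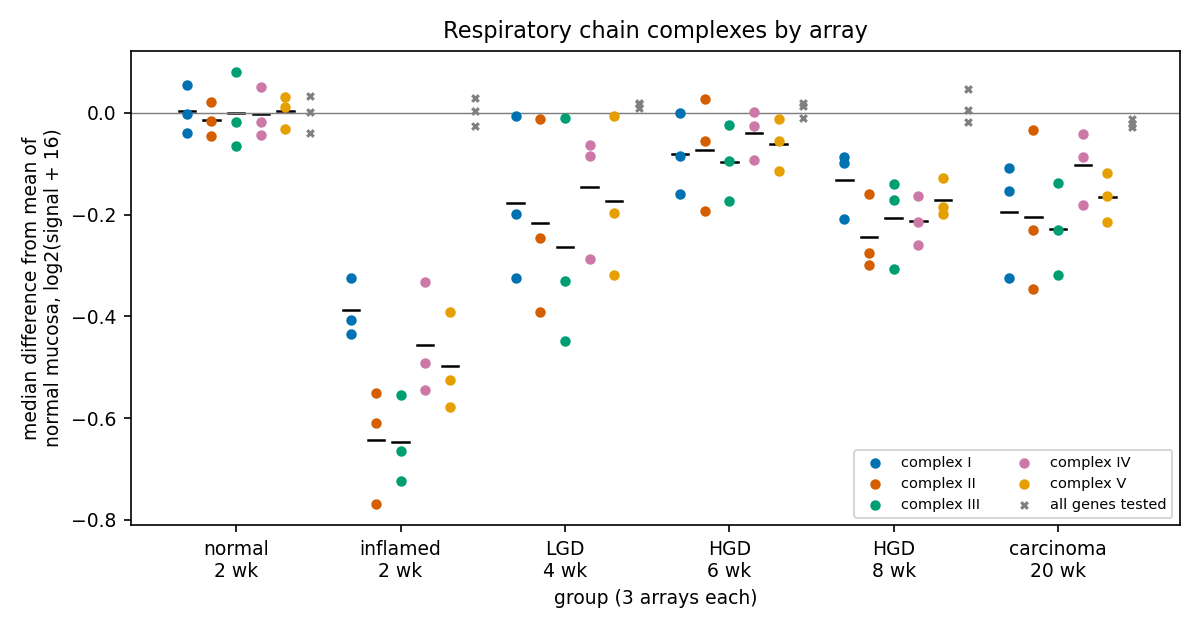
Median difference of each complex from the mean of normal mucosa (y axis, log2 units of signal + 16), 1 point per array and complex, for the 6 groups of 3 arrays (x axis); black dashes are the means of the 3 arrays and grey crosses are all genes tested. All inflamed points lie at -0.32 or lower, while the LGD arrays spread from -0.45 to -0.01.

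The composition of the tissue moved at the same time. Of the 15 general epithelial markers 14 fell in inflamed mucosa, with a median change of -3.05, and their summed signal was 1600.5 to 41929 against 80941 to 86817 in normal mucosa. At least 9 of the 15 remained above the median of the table on every inflamed array, and none was at 0. Of 12 mature colonocyte markers measured 11 fell, with summed signals of 927 to 10642 against 37775 to 60156. All 12 neutrophil markers measured rose, from sums of 728 to 783 to sums of 45334 to 75269. The part of these shifts in the members' fall was not tested, and in whole tissue fewer cells of a type and less RNA per cell cannot be told apart. The array with the smallest epithelial shift, inflamed replicate 1 at a marker median of -1.26, also had the smallest member shift, and replicates 2 and 3 had marker medians of -5.53 and -2.75.

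Promoters were examined because so many members moved together. RefSeq windows from 250 bases before to 50 bases after the start site (build GRCm38.p6) matched 66 of the 81 members, with 71 windows. Exact copies of core motifs of factors known for respiratory gene control were counted on both strands. GCGCATGC or GCATGCGC, the core of the NRF1 motif, stood in 12.7% of member windows, in 2.71% of all 32851 windows and in 3.51% of the 21262 windows of coding genes. CCGGAAG or CTTCCGG (GABPA) stood in 23.9%, against 8.86% of all and 11.6% of coding windows. AAGATGG or CCATCTT (YY1) stood in 14.1%, against 6.34% and 6.24%, and CAAGGTCA or TGACCTTG (ERRalpha) in 5.63%, against 1.56% and 1.34%. None of these motifs contains another. Members with and without a motif had the following changes in inflamed mucosa. The 9 tested members with the NRF1 core had a median change of -0.50 and the 54 without it -0.46, and for GABPA these medians were -0.44 (17 members) and -0.48 (46 members). For YY1 they were -0.54 (10 members) and -0.45 (53 members), and for ERRalpha -0.26 (4 members) and -0.48 (59 members). A match is a description of letters and not a site of binding.

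4 promoters are shown, those of a complex II and a complex III member with motifs (in capitals) and those of the members with the largest fall and the largest rise, Cox7a1 and Cox6b2. Sdhd (chr9:50603800-50604099, minus strand) holds the GABPA and ERRalpha letters on the opposite strand, and Uqcr11 (chr10:80406772-80407071, minus strand) holds the GABPA letters and, after them, the NRF1 letters. Cox7a1 (chr7:30183921-30184220, plus strand) and Cox6b2 (chr7:4753045-4753344, minus strand) hold none of these letters in this window.
Sdhd: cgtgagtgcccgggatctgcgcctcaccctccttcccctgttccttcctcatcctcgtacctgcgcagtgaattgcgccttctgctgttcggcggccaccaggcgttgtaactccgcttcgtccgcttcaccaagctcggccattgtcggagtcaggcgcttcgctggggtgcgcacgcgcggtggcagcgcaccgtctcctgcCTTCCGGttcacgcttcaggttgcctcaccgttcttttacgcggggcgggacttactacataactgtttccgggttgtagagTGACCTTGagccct
Uqcr11: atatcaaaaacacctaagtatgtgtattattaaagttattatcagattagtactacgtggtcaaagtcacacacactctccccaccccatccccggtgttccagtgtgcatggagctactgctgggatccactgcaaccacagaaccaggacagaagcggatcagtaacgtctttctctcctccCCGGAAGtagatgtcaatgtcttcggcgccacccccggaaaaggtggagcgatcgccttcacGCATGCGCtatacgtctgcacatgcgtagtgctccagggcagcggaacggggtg
Cox7a1: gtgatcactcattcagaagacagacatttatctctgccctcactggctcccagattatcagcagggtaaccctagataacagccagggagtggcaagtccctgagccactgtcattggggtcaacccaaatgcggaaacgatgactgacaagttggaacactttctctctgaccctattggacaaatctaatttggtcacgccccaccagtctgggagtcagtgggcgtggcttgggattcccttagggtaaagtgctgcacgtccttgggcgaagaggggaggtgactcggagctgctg
Cox6b2: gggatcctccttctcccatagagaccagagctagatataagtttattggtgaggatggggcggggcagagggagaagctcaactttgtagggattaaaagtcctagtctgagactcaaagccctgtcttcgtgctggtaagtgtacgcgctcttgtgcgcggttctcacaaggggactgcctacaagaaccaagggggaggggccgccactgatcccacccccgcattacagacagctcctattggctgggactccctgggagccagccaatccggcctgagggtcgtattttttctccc

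Complex I, the NADH dehydrogenase, lost signal in both its catalytic core and its accessory shell. The nuclear core subunits carry the flavin and iron-sulphur clusters, and 5 of the 6 tested fell: Ndufs7 by 0.70, Ndufv1 by 0.70, Ndufv2 by 0.63, Ndufs1 by 0.60 and Ndufs8 by 0.36 on the log2 scale, while Ndufs3 changed by -0.18 ± 0.12 (SE; adjusted p = 0.209). The Ndufv2 call was lost without inflamed replicate 2. The largest falls were in accessory subunits. Ndufb9, an accessory subunit of the membrane arm, read 12.61, 12.52 and 12.57 in normal mucosa and 11.74, 11.54 and 11.59 in inflamed mucosa, a change of -0.94 ± 0.12 (SE; 1.92-fold, adjusted p = 2.95e-05). The groups lay far apart, with little spread within either.

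Ndufa6, an accessory subunit of the matrix arm, read 12.37, 12.41 and 12.23 in normal and 11.68, 11.37 and 11.42 in inflamed mucosa. It fell by 0.85 ± 0.13 (SE; adjusted p = 8.14e-05), again without overlap. Of the other members under complex I names, 8 did not pass: Ndufa2, Ndufa3, Ndufa4, Ndufa8, Ndufb7, Ndufs3, Ndufs4 and Ndufs5, at -0.20 to 0.18. Probe sets of a gene disagreed in direction for Ndufs4, an accessory subunit, which read 0.02 on the probe set used and -0.64 and -0.21 on 2 others, and for Ndufs8, which read -0.36 on the probe set used, 0.17 on its dimmest and -0.41 to -0.27 on the other 4. In all, 63 of the 67 further probe sets of tested members that passed the filter had the sign of the one used in inflamed mucosa.

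Complex II, succinate dehydrogenase, is the only complex made wholly of nuclear subunits and also a step of the tricarboxylic acid cycle. Sdhd, a membrane anchor, read 11.76, 11.68 and 11.69 in normal and 10.99, 10.66 and 10.79 in inflamed mucosa and fell by 0.89 ± 0.22 (SE; adjusted p = 0.0043). Sdhc, the other anchor, was nearly identical on the inflamed arrays at 9.47, 9.50 and 9.48, against 10.09, 10.14 and 10.06, and fell by 0.62 ± 0.13 (SE; adjusted p = 0.00122). A dimmer probe set of Sdhc, above the table median on all 18 arrays, changed by only -0.21. Sdhb, the iron-sulphur subunit, read 12.06, 11.94 and 11.98 against 11.52, 11.43 and 11.47 and fell by 0.52 ± 0.11 (SE; adjusted p = 0.00101). None of these overlapped between groups.

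Sdha, the flavoprotein subunit, was the least settled. It read 10.61, 10.39 and 11.23 in normal and 10.35, 10.13 and 9.24 in inflamed mucosa, a fall of 0.84 ± 0.29 (SE; adjusted p = 0.0259). Normal replicate 3 was high and inflamed replicate 3 low, and the call was lost without either (adjusted p = 0.125 and 0.146). Its probe set is of a kind that can bind related transcripts, and the gene's other bright probe set changed by -0.14.

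Complex III, the cytochrome bc1 complex, fell in all 8 members. Uqcrc2, a core protein of its matrix side, read 11.97, 11.99 and 12.09 in normal and 11.19, 10.34 and 10.69 in inflamed mucosa. The change of -1.28 ± 0.17 (SE; 2.43-fold, adjusted p = 4.57e-05) was the largest fall of any member with a mean level above 9, and a further probe set gave -1.09. Uqcrfs1, the Rieske iron-sulphur protein, read 11.57, 11.49 and 11.35 against 10.76, 10.51 and 10.52 and fell by 0.87 ± 0.18 (SE; adjusted p = 0.00117). The smaller subunits Uqcr10, Uqcr11, Uqcrh, Uqcrq and Uqcrb fell by 0.17 to 0.79, although Uqcrq read 0.04 on another probe set and its call was lost without any 1 of normal replicates 1 and 2, inflamed replicates 2 and 3, HGD 6-week replicate 1 and HGD 8-week replicate 3.

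Complex IV, cytochrome c oxidase, held the members with the largest changes in both directions, and both are tissue-restricted isoforms. Among the general subunits Cox5a, which faces the matrix, read 13.40, 13.41 and 13.48 in normal and 13.09, 12.45 and 12.60 in inflamed mucosa and fell by 0.72 ± 0.12 (SE; adjusted p = 0.000291). Inflamed replicate 1 was nearest to normal without reaching it. Cox4i1, Cox5b, Cox6a1, Cox6b1, Cox6c, Cox7a2, Cox7a2l (a factor that joins complexes III and IV) and Cox8a fell by 0.37 to 0.63, and the call of Cox7a2l was lost without normal replicate 1 or inflamed replicate 2. Cox7c, on a dim probe set, changed by -0.41 (adjusted p = 0.115).

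Cox7a1, the isoform of subunit 7a known from heart and skeletal muscle, had the largest change of all members. It read 9.03, 9.03 and 8.81 in normal mucosa and 6.11, 5.57 and 6.22 in inflamed mucosa, a 7.92-fold fall (-2.99 ± 0.34, SE; adjusted p = 1.1e-05). No array of either group came near the other. The inflamed values were dim and near the median of the table, above which the probe set lay on 16 of 18 arrays. The size of the fall is thus less certain than its direction, and it ranged from -3.35 to -2.29 over the alternative settings and array losses. Its general partner Cox7a2 fell by 0.43 ± 0.08 (SE; adjusted p = 0.000632), from 13.55, 13.47 and 13.52 to 13.23, 12.99 and 13.04. Of the 5 striated muscle markers measured 2 fell (median change -0.03), with sums of 379 to 542 in normal and 284 to 333 in inflamed mucosa. Of 12 smooth muscle markers 0 passed (median -0.53; 1 below an unadjusted p of 0.05), with sums of 51428 to 74024 and 39869 to 51654. The part of muscle in the fall of Cox7a1 was not tested.

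Cox6b2, an isoform of subunit 6b known from testis, moved the other way. It read 7.03, 6.76 and 6.87 in normal and 9.31, 10.01 and 9.20 in inflamed mucosa, a 6.15-fold rise (2.62 ± 0.28, SE; adjusted p = 6.33e-06). Every inflamed array stood far above every normal array. The normal values were dim, so the size of the rise is less certain than its direction. It ranged from 2.22 to 2.79 over the alternative settings and array losses. Its general partner Cox6b1 fell by 0.58 ± 0.08 (SE; adjusted p = 3.75e-05), from 13.43, 13.39 and 13.39 to 13.01, 12.71 and 12.75.

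Ndufa4l2, a hypoxia-inducible relative of Ndufa4, read 6.66, 6.58 and 6.85 in normal and 6.92, 7.71 and 7.91 in inflamed mucosa. It rose by 0.82 ± 0.19 (SE; adjusted p = 0.00313), with inflamed replicate 1 only just above the normal arrays. Ndufa4, named for complex I but known as a complex IV subunit, changed by 0.18 ± 0.16 (SE; adjusted p = 0.387). The other restricted isoforms measured, Cox6a2 of muscle and Cox8c of testis, changed by 0.32 (adjusted p = 0.1) and 0.02 (adjusted p = 0.945), while their partners Cox6a1 and Cox8a fell by 0.44 and 0.63. A dimmer probe set of Cox8c gave 0.36. The hypoxia-inducible Cox4i2 was too dim to test, and its partner Cox4i1 fell by 0.47. The remaining rise was that of Ndufb1, a complex I accessory subunit on a dim probe set, from 7.73, 7.72 and 7.57 to 7.97, 8.00 and 8.21 (0.39 ± 0.12, SE; adjusted p = 0.0139). Ndufb1 no longer passed when normal replicate 3 or inflamed replicate 3 was left out.

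**Figure D2:**
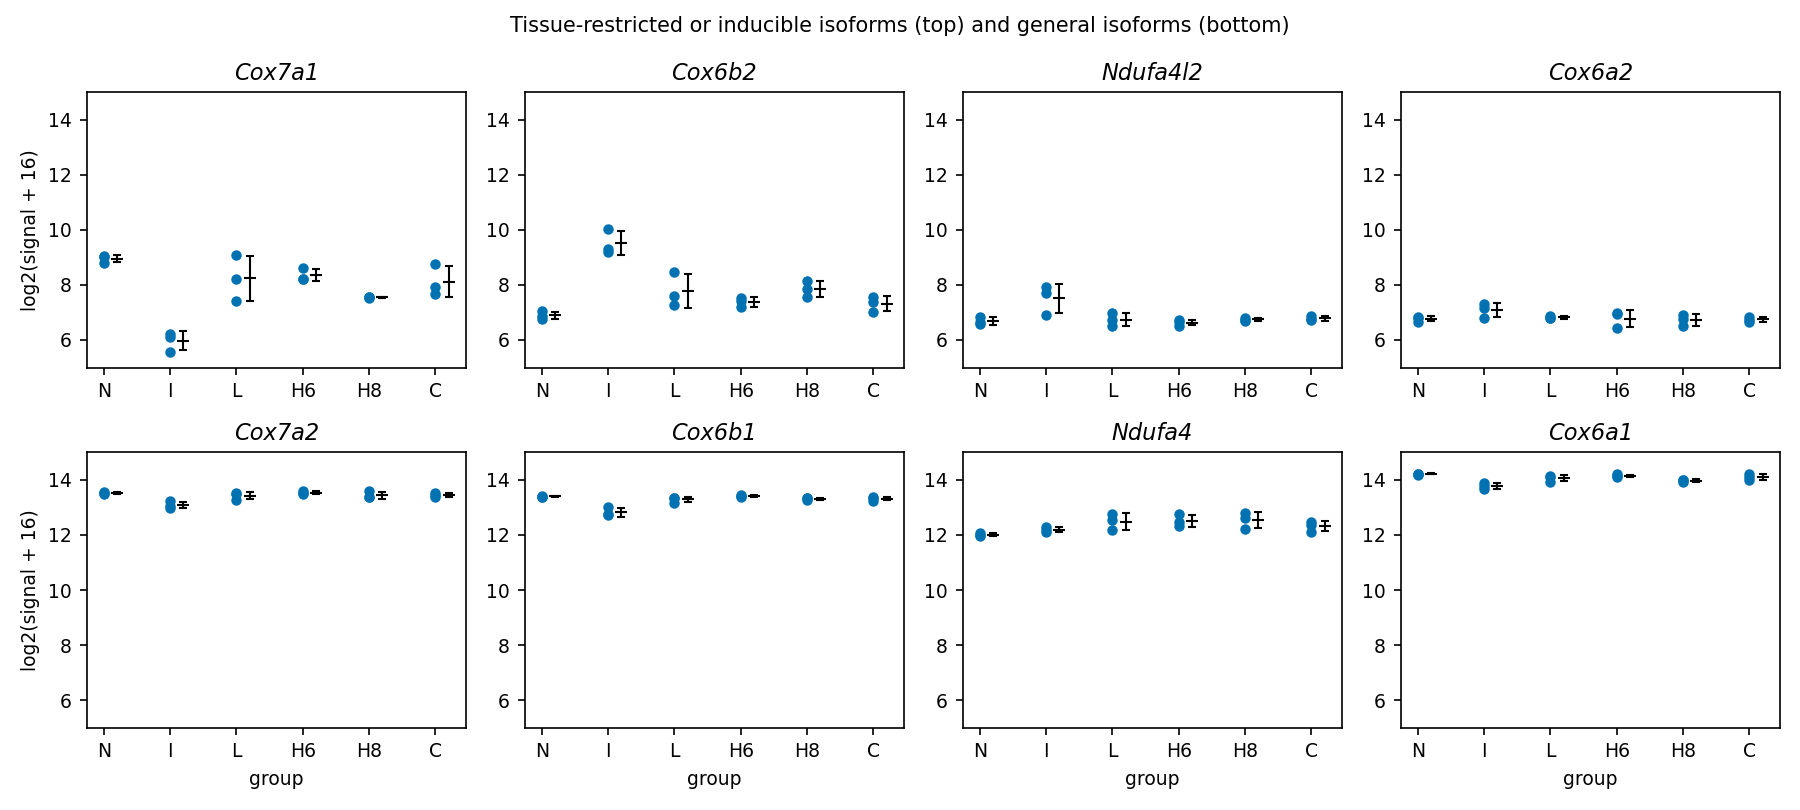
Level of 4 tissue-restricted or inducible isoforms (top) and their general partners (bottom) as log2(signal + 16) (y axis) in normal mucosa (N), inflamed mucosa (I), LGD (L), HGD at 6 (H6) and 8 weeks (H8) and carcinoma (C) (x axis); points are arrays and bars are mean ± SD of 3. Cox7a1 is low and Cox6b2 high in inflamed mucosa, and levels are not comparable between genes.

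Complex V, the ATP synthase, fell in 16 of 17 members, from -0.29 to -0.84. Atp5a1, the alpha subunit of the catalytic head, read 12.35, 12.37 and 12.40 in normal and 11.82, 11.39 and 11.40 in inflamed mucosa and fell by 0.84 ± 0.11 (SE; adjusted p = 4.57e-05). Atp5b, the catalytic beta subunit, read 12.26, 12.34 and 12.34 against 11.79, 11.39 and 11.51 and fell by 0.75 ± 0.11 (SE; adjusted p = 8.14e-05). Both were low on all inflamed arrays, least on replicate 1.

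The central stalk genes Atp5c1, Atp5d and Atp5e fell by 0.70, 0.71 and 0.36. Atp5o, which holds the outer stalk to the head, fell by 0.63. The genes Atp5g1, Atp5g2 and Atp5g3 encode the same mature subunit of the membrane ring and fell by 0.82, 0.38 and 0.34, the call of Atp5g2 being lost without normal replicate 1. Atp5g1 read 11.93, 11.63 and 11.84 in normal and 11.33, 10.71 and 10.89 in inflamed mucosa (adjusted p = 0.00063), without overlap. Atp5l, subunit g of the membrane part, did not pass at -0.18 ± 0.09 (SE; adjusted p = 0.103).

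**Figure D3:**
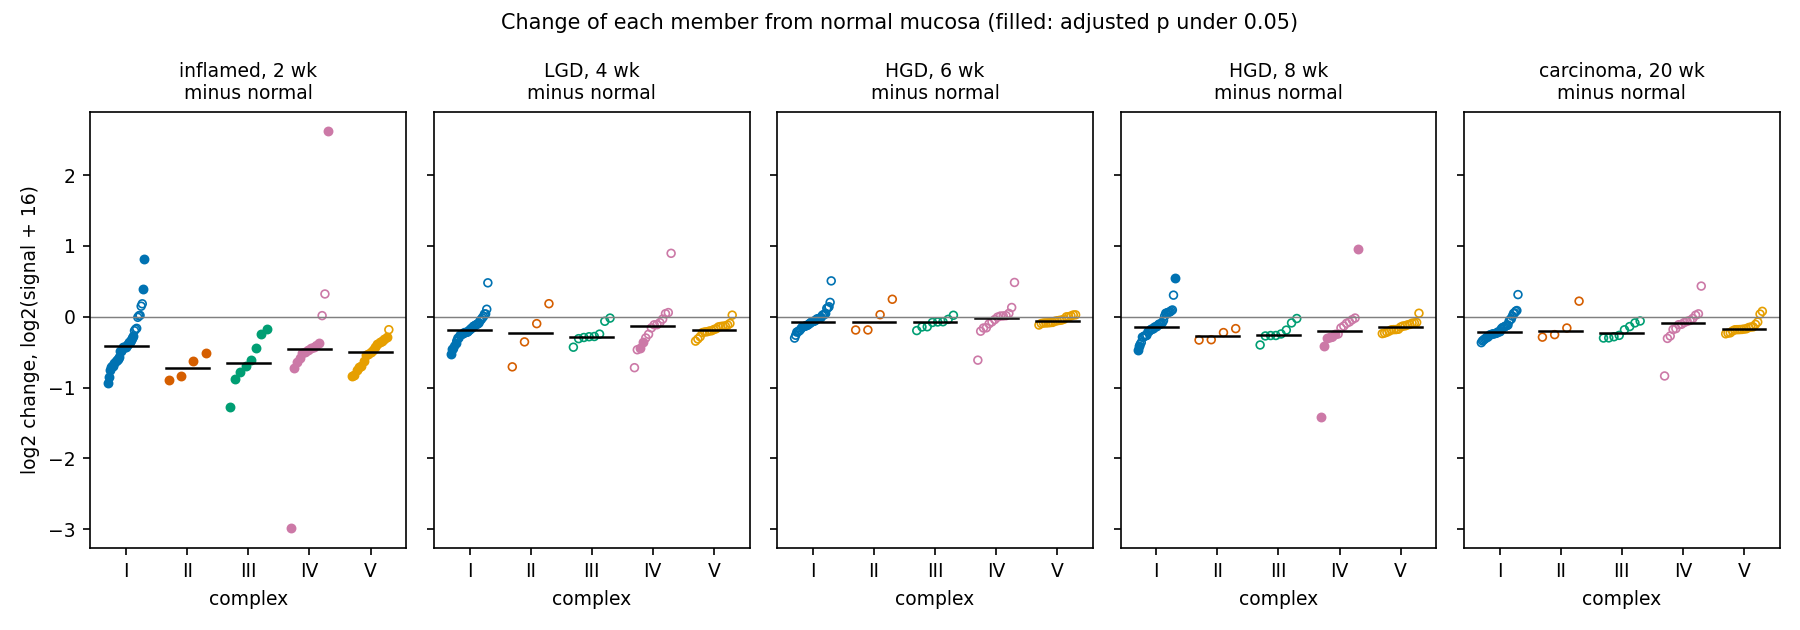
Change of each tested member from normal mucosa in log2 units of signal + 16 (y axis) by complex (x axis), 1 panel per stage; filled points have an adjusted p under 0.05 and dashes are medians. Filled points fill the inflamed panel, number 5 in LGD and 9 in HGD at 8 weeks, and are absent in HGD at 6 weeks and in carcinoma.

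Other mitochondrial gene groups were examined in inflamed mucosa, where 24.3% of all genes tested fell and 22.6% rose. Of 13 tricarboxylic acid cycle genes tested 12 fell (median -0.58), led by the succinyl-CoA ligase subunits Suclg2 (-1.66 ± 0.27, SE; adjusted p = 0.000165) and Suclg1 (-1.24 ± 0.20, SE; adjusted p = 0.000169) and by citrate synthase, Cs (-1.31 ± 0.19, SE; adjusted p = 7.9e-05). Of 10 electron carrier and donor genes 5 fell (median -0.37), among them Coq9 of ubiquinone synthesis at -1.08, the sulphide oxidising enzyme Sqor at -1.04 and Cyc1, the cytochrome c1 of complex III that the symbol rule leaves out, at -1.03. The Sqor call was lost without normal replicate 2, inflamed replicate 2 or inflamed replicate 3. Of 40 assembly factors tested 21 fell and 1 rose (median -0.31). Cox15, of haem a synthesis, fell by 1.13, the copper chaperone Sco1 by 1.00 and Cox20 by 0.92, and Coa7 rose by 0.43.

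Of 76 mitochondrial ribosomal protein genes 28 were lower and 2 higher (median -0.23), against the same 24.3% and 22.6% of all genes tested. Differences between these lists were not tested. The falls were largest for Mrps6 (-1.13), Mrps35 (-0.94) and Mrpl44 (-0.90). The rises were those of Mrpl20 and Mrpl33, both by 0.62. Genes of mitochondrial DNA were not analysed here.

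Regulators of mitochondrial gene expression included the deepest falls. The coactivators Ppargc1a and Ppargc1b fell by 3.25 ± 0.42 (SE; adjusted p = 2.84e-05) and 2.79 ± 0.41 (SE; adjusted p = 7.85e-05), and the nuclear receptor Esrra, their partner, by 1.06 ± 0.19 (SE; adjusted p = 0.000337). In all, 9 of 15 regulators fell and none rose by this limma test (median -0.37; 0 above zero had an unadjusted p under 0.05). Of the factors named with the promoter motifs, ERRalpha is the product of Esrra. The genes of the other factors did not pass, with changes of -0.15 for Nrf1 (adjusted p = 0.31), -0.18 for Gabpa (adjusted p = 0.2) and -0.07 for Yy1 (adjusted p = 0.644). The mitochondrial DNA factor Tfam fell by 0.54.

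**Figure D4:**
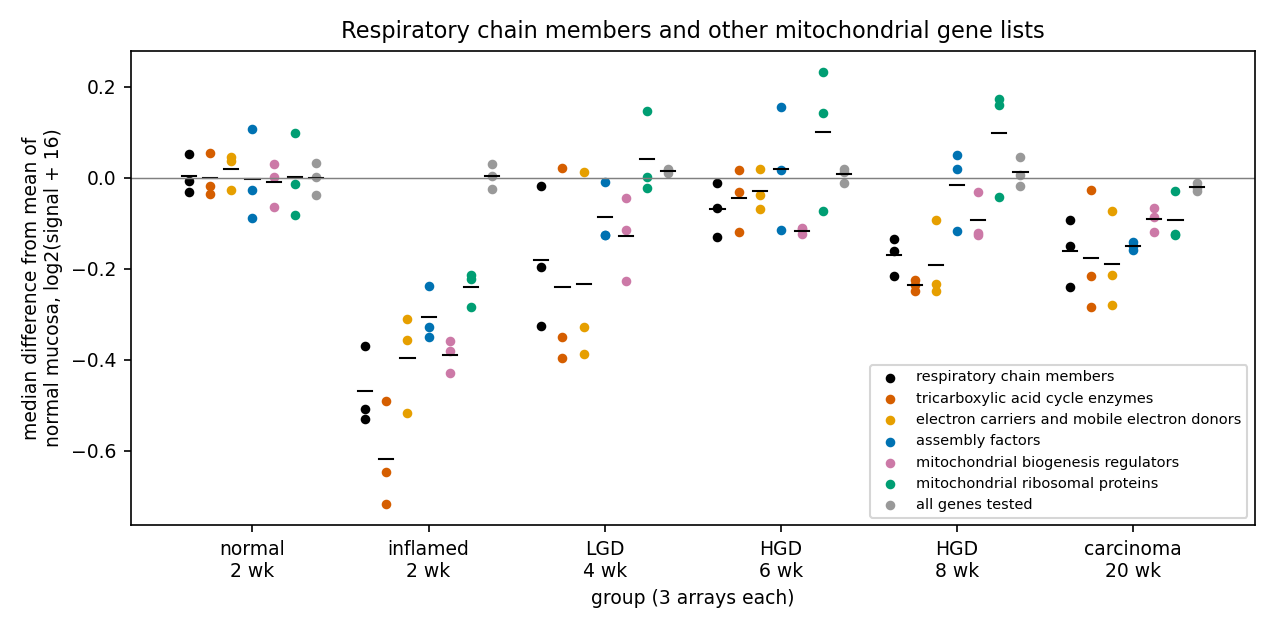
Median difference from the mean of normal mucosa (y axis, log2 units of signal + 16) for the members and 5 other mitochondrial gene lists, 1 point per array, in the 6 groups of 3 arrays (x axis); grey points are all genes tested and dashes are the means of the 3 arrays. Members sit between -0.53 and -0.37 on the inflamed arrays, and the ribosomal protein list reaches 0.23 in HGD at 6 weeks.

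LGD at 4 weeks was compared with normal mucosa. 5 of 77 members fell and 0 rose, against 3.08% and 2.61% of all genes tested, and 2 members had a positive change with an unadjusted p under 0.05, as did 12.5% of all genes tested. The median change was -0.20 against 0.02 over all genes tested. The arrays were unlike each other: the members' median difference from normal was -0.33 on replicate 1, -0.20 on replicate 2 and -0.02 on replicate 3. LGD replicate 3 thus lay among the normal arrays, and without it 31 members fell and 2 rose, against 7.46% and 6.42% of all genes tested in that fit. Without any 1 of the other LGD arrays or any 1 normal array, 0 members passed as lower. The count was 3 without inflamed replicate 3, HGD 6-week replicate 1, HGD 8-week replicate 3 or carcinoma replicate 3. For these losses the shares of all genes tested are not given, so they cannot be read as particular to the members. The markers varied between these arrays too, with epithelial medians of -0.50, 0.08 and 0.20 and neutrophil medians of 4.67, 1.31 and 0.40 on replicates 1, 2 and 3. Their part in the members' values was not tested.

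The genes that fell in LGD were complex I accessory subunits and complex IV genes. Ndufa6 read 11.59, 11.77 and 12.07 (normal 12.23 to 12.41) and fell by 0.53 ± 0.13 (SE; adjusted p = 0.0287), with every LGD array below every normal one. Ndufb9 read 11.81, 12.09 and 12.41 (normal 12.52 to 12.61) and fell by 0.46 ± 0.12 (SE; adjusted p = 0.0411). Ndufa1, a small subunit of the membrane arm, read 12.75, 12.84 and 12.98 (normal 13.21 to 13.24) and fell by 0.38 ± 0.08 (SE; adjusted p = 0.0188). All of these kept below the normal range on each array. They were named because they passed on the same arrays, so this separation partly follows from the choice.

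Cox7a2l read 11.34, 10.91 and 11.33 (normal 11.58 to 11.72) and fell by 0.45 ± 0.12 (SE; adjusted p = 0.0398). Its lowest array was replicate 2, the one with the high Gapdh 3′ to 5′ difference. Cox6c read 12.53, 12.64 and 12.86 (normal 12.98 to 13.08) and fell by 0.35 ± 0.09 (SE; adjusted p = 0.0338). In the other complexes 0 members passed in LGD. The smallest p values there belonged to Sdhd (-0.71 ± 0.22, SE; adjusted p = 0.0724), which was lowest on replicate 2 at 10.28, to Uqcrh (-0.28 ± 0.10, SE; adjusted p = 0.117) and to Atp5l (-0.31 ± 0.09, SE; adjusted p = 0.0512).

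The difference between LGD and inflamed mucosa was tested directly. 37 of 77 members were higher and 2 lower in LGD, against 19.3% and 17% of all genes tested, with a median difference of 0.26. By complex the higher members were 9 of 34 in complex I, 2 of 4 in complex II, 5 of 8 in complex III, 8 of 14 in complex IV and 13 of 17 in complex V. Cox7a1 read 7.41, 8.23 and 9.07 in LGD, above the inflamed 5.57 to 6.22 (2.27 ± 0.34, SE; adjusted p = 0.000172). LGD replicate 3 lay just above the normal arrays, while replicates 1 and 2 lay below them.

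Uqcrc2 read 11.44, 11.93 and 11.84, above every inflamed array (1.00 ± 0.17, SE; adjusted p = 0.000584), and Sdha 10.60, 11.00 and 11.19 (1.02 ± 0.29, SE; adjusted p = 0.012). The other bright probe set of Sdha gave 0.46, and its call was lost without inflamed replicate 3 or LGD replicate 3. The 2 members that were lower, Cox6b2 and Ndufa4l2, were among the 3 that had risen with inflammation, while Ndufb1 did not pass. The same inflamed arrays enter the comparison with normal mucosa, so opposite directions in these comparisons are partly built in. Cox6b2 read 8.47, 7.61 and 7.28 in LGD (-1.72 ± 0.28, SE; adjusted p = 0.000297), and Ndufa4l2 6.97, 6.74 and 6.50 (-0.78 ± 0.19, SE; adjusted p = 0.00632). Cox6b2 did not overlap with the inflamed arrays, while LGD replicate 1 of Ndufa4l2 lay above inflamed replicate 1. The count of higher members was 24 without inflamed replicate 3 or without LGD replicate 3, against 14.6% and 16% of all genes tested. It was 11 with only these 2 groups in the model (12.6% of all genes tested) and 18 of 58 with only the unmarked probe sets (18.4%). Of the epithelial markers, 14 of 15 were also higher in LGD (median 3.02).

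HGD at 6 weeks showed no member passing by limma. Of 77 members 0 rose and 0 fell, against 0.621% and 0.52% of all genes tested, with 1 higher and 3 lower at an unadjusted p under 0.05, which 10.3% and 9.37% of all genes tested reached. The model with only these 2 groups called 2 higher and 1 lower, where it called 7.3% and 5.38% of all genes tested. The median change was -0.07, with complex medians from -0.08 to -0.02, and the array medians were -0.07, -0.01 and -0.13. Ndufa4 had the smallest p of any member. It read 12.48, 12.75 and 12.31 against 12.01, 12.06 and 11.95 in normal mucosa (0.51 ± 0.16, SE; adjusted p = 0.123), above the normal arrays on all 3. The member nearest to passing in each other complex was Sdhc at -0.19 (adjusted p = 0.461), Uqcrh at -0.14 (0.49), Cox8a at -0.20 (0.313) and Atp5j, the coupling factor subunit, at -0.10 (0.471).

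HGD at 8 weeks, sampled 2 days after the last DSS cycle, had 7 members lower and 2 higher, against 6.42% and 4.84% of all genes tested. The median change was -0.17 against 0.03 over all genes tested, and the arrays lay together at -0.13, -0.16 and -0.22. Both counts are small and near those shares, so they cannot be read as particular to the members. Complex IV held 5 of the 7 falls, and this split by complex was not tested. Cox7a1 read 7.56, 7.53 and 7.54, far below the normal 8.81 to 9.03, and fell by 1.41 ± 0.34 (SE; adjusted p = 0.0218). The arrays differed little from each other.

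Cox8a, a small membrane subunit, read 11.76, 11.82 and 11.79 (normal 12.16 to 12.26) and fell by 0.41 ± 0.11 (SE; adjusted p = 0.0296). Cox4i1 and Cox6c fell by 0.29 each and Cox6a1 by 0.25. Ndufa6 read 11.87, 11.79 and 11.95 and fell by 0.47 ± 0.13 (SE; adjusted p = 0.0324), and Ndufb9 read 12.20, 12.11 and 12.15 and fell by 0.41 ± 0.12 (SE; adjusted p = 0.0451). Each of these was below normal mucosa on all 3 arrays, which partly follows from naming genes that passed.

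Cox6b2 was again higher, at 7.85, 8.15 and 7.55 against 6.76 to 7.03 (0.96 ± 0.28, SE; adjusted p = 0.0403). Ndufa4 read 12.23, 12.80 and 12.62 and rose by 0.54 ± 0.16 (SE; adjusted p = 0.0481), with all arrays above normal. These calls were fragile. Without normal replicate 1 or 2, or HGD 8-week replicate 2 or 3, 0 members were lower and 0 higher; without normal replicate 3, 1 was lower and 0 higher, and without HGD 6-week replicate 1, 0 were higher. The count of higher members was 1 without any 1 inflamed array, LGD replicate 2, HGD 8-week replicate 1 or carcinoma replicate 2 or 3. Shares of all genes tested are not given for these fits, so the losses cannot be read as particular to the members. Of 12 smooth muscle markers 6 fell at 8 weeks (median -1.27; sums of 26749 to 33144), 2 of 12 mature colonocyte markers fell (median -2.23) and 3 of 12 neutrophil markers rose. Their part in these values was not tested.

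Complexes II, III and V had 0 members passing at 8 weeks, with 1 of 4, 3 of 8 and 4 of 17 members lower at an unadjusted p under 0.05 and 0 higher, against 15.1% of all genes tested in each direction. The smallest p values there belonged to Sdhc (-0.32 ± 0.13, SE; adjusted p = 0.107), Uqcrh (-0.27 ± 0.10, SE; adjusted p = 0.0949) and Atp5j (-0.18 ± 0.07, SE; adjusted p = 0.0883). Against HGD at 6 weeks, 0 members passed in either direction, where 0% of all genes tested passed as higher and 0% as lower. The median difference was -0.11, and 3 members, Cox6a1, Cox4i1 and Cox7a1, were lower at an unadjusted p under 0.05 in the limma fit, as were 1.99% of all genes tested.

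Carcinoma at 20 weeks had 0 members called in either direction by limma, against 0.326% of all genes tested higher and 0.575% lower. Of the 77 members 65 had a change below 0 and 24 were lower at an unadjusted p under 0.05, with 0 higher. Among all genes tested, 6880 of 12877 had a change below 0 and 1369 were lower at that p. The median change of the members was -0.17 against -0.02 over all genes tested, and the carcinoma arrays read -0.09, -0.24 and -0.15. With only the unmarked probe sets, 2 of 58 members fell, against 0.998% of all genes tested on them. The complex medians were -0.21, -0.21, -0.22, -0.09 and -0.17 for complexes I to V.

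The smallest p value in carcinoma was that of Cox6c, at 12.86, 12.62 and 12.79 against 12.98 to 13.08 (-0.27 ± 0.09, SE; adjusted p = 0.132). Ndufb5, an accessory subunit of the membrane arm, read 11.91, 11.72 and 11.87 against 12.12 to 12.27 (-0.37 ± 0.12, SE; adjusted p = 0.146). Atp5e, the epsilon subunit, read 11.86, 11.77 and 11.93 against 12.06 to 12.12 (-0.24 ± 0.08, SE; adjusted p = 0.144). These lay below the normal range on every array but did not pass over all genes. Each was named for the smallest p of its complex, so this separation partly follows from the choice.

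Sdhc and Uqcrh changed by -0.29 (adjusted p = 0.254) and -0.26 (adjusted p = 0.201) in carcinoma. Sdha read 11.19, 10.79 and 10.93, within the normal range of 10.39 to 11.23. Cox7a1 read 8.76, 7.67 and 7.93 (-0.84 ± 0.34, SE; adjusted p = 0.212), with replicate 1 close to normal. Against HGD at 8 weeks, 0 members passed as higher or lower, where 0% and 0% of all genes tested did. The median difference was 0.02, and only Atp5md, a small membrane subunit, was lower at an unadjusted p under 0.05, as were 6.31% of all genes tested.

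Over the 6 groups together, 52 of 77 members differed by the moderated F test of limma, against 45.3% of all genes tested. With only the unmarked probe sets 31 of 58 did. The share of all genes tested on such probe sets is not given, so that count cannot be set against the 45.3%.

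**Figure D5:**
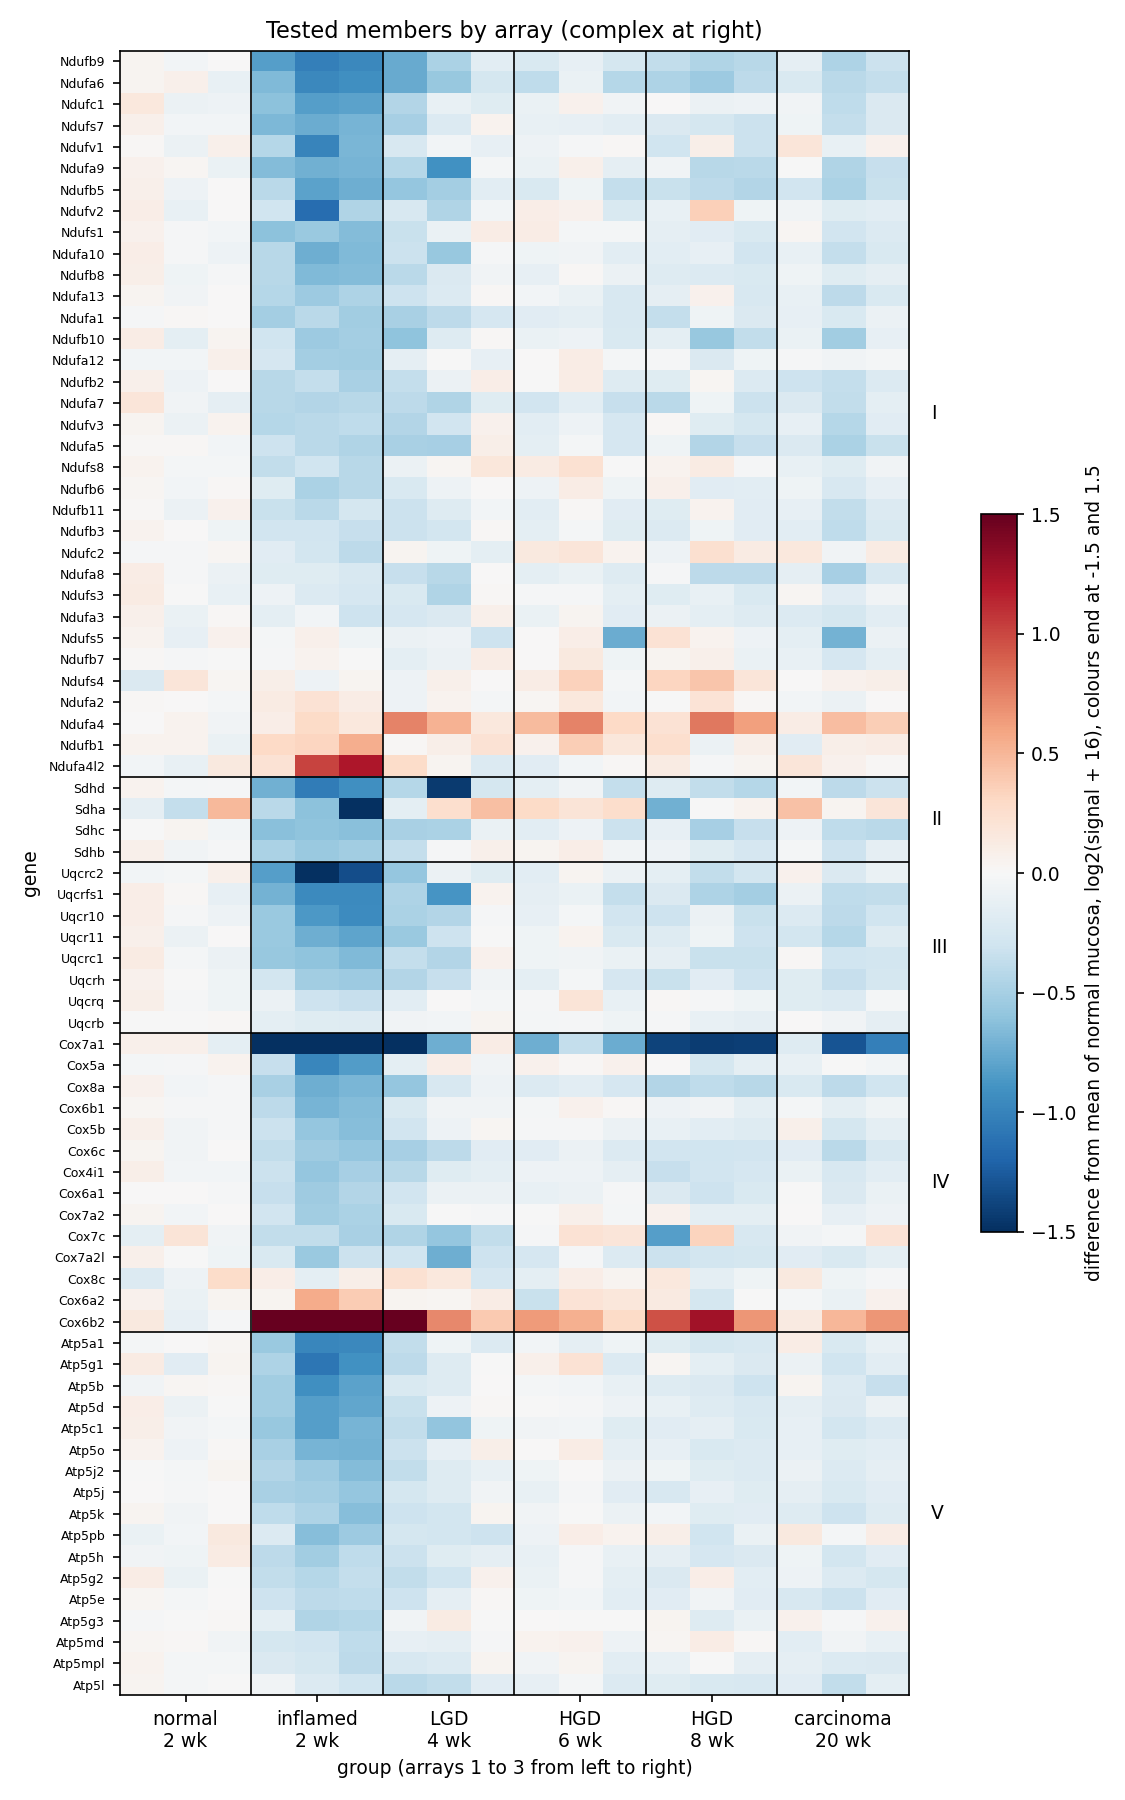
Difference of each tested member (y axis, grouped by complex) from its mean in normal mucosa, in log2 units of signal + 16, on each of the 18 arrays (x axis, replicates 1 to 3 of each group); blue is lower, red is higher and colours end at -1.5 and 1.5. The inflamed columns are blue for most genes, and Cox7a1 and Cox6b2 are the strongest blue and red rows.

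Ribosomal protein genes had median changes of 0.11 in HGD at 6 weeks and 0.12 at 8 weeks, where the members had -0.07 and -0.17. Their array medians were 0.14, 0.23 and -0.07 at 6 weeks and 0.17, 0.16 and -0.04 at 8 weeks, and replicate 3 of each lay within the normal arrays' -0.08 to 0.10. At 8 weeks 3 of 76 passed as higher, Mrpl20 and Mrpl33 (0.64 and 0.46) among them, a share below the 4.84% of all genes tested. The difference between the lists was not tested. In carcinoma 1 ribosomal gene, Mrps24, fell (-0.59 ± 0.13, SE; adjusted p = 0.046). That call was lost in 4 of 10 other settings and without any of 11 of the 18 single arrays. Among the regulators Ppara, a nuclear receptor of fatty acid oxidation genes, was lower than in normal mucosa at all 5 stages, at -0.89 in inflamed mucosa, -0.90 in LGD, -0.56 and -0.77 in HGD and -0.63 in carcinoma (adjusted p = 0.00491). Ppargc1b fell by 2.19 in HGD at 8 weeks (adjusted p = 0.00799) and changed by -1.11 in carcinoma (adjusted p = 0.172).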

How the data were processed

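RNA from mouse colorectum was measured on 18 Affymetrix whole-genome arrays, in 6 groups of 3. The authors deposited 1 intensity per probe set and array, on a linear scale. MAS5 is named in the submitters' processing notes. How it was set and used is not given in the sources used. The table holds 45101 probe sets, 34945 of them annotated to 1 gene, and no further scaling was applied. Signals were taken as log2(signal + 16). Probe sets entered the tests if 3 or more of the 18 arrays lay above the table median of 56.6, and the one with the highest mean stood for its gene. The 81 members have 164 probe sets, and 19 members rest on one marked s or x.

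Tests used limma 3.58.1 (R 4.3.3) with 1 model of 18 arrays, eBayes with an intensity trend and Benjamini-Hochberg adjustment over 12877 genes, at a threshold of 0.05. P-values are 2-sided. The code was tested on simulated data. The members and gene lists were chosen with earlier results of these data known, so lists are described by counts and medians with no set test.

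Genes were named by a rule: per complex and stage the 2 largest passing rises and falls or else the smallest p, all isoforms with their partners, all Sdh genes, up to 3 genes of each further list, and members whose probe sets disagree. Further genes named with their roles (such as Ndufa1, Atp5b, Tfam or Coa7) were chosen after their values were seen. Where genes named for passing lay apart between groups, this partly follows from the choice. Alternatives covered the pseudocount, filter, scaling, probe set choice, spread, replicate block and leaving out each array. Probe sets of several genes were left out of the tests. Precision is limited by the number of arrays.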

Additional observations from a re-analysis of the deposited data

Results flagged for a closer look

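Members that had moved with inflammation differed between LGD at 4 weeks and inflamed mucosa at 2 weeks, by a limma test of that difference itself with adjustment over all genes tested. The same inflamed arrays enter the comparison with normal mucosa, so opposite directions in these comparisons are partly built in. In all, 39 of the 77 members tested differed, where 19.3% of all genes tested were higher in LGD and 17% lower. Fewer members differed with only these 2 groups in the model. The differences past this test that were largest, as LGD minus inflamed on the log2 scale, were 2.27 for Cox7a1, -1.72 for Cox6b2, 1.02 for Sdha, 1.00 for Uqcrc2 and -0.78 for Ndufa4l2. The other bright probe set of Sdha gave 0.46. The epithelial and neutrophil markers also differed between these groups, and their part in the values was not tested.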

How the results depend on the processing

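Followed through the settings were 136 gene results, namely all calls of members and the leading genes of the other lists. Of these, 86 kept their side of the threshold under every alternative setting and 95 under the loss of any single array. With only unmarked probe sets, Uqcrq in inflamed mucosa turned to 0.037 and Ndufa12 in LGD against inflamed mucosa to -0.15, and no other of these results changed sign. Without the filter, 81 members were tested. Inflamed mucosa then had 5 higher (18% of all genes tested) and LGD 2 lower (1.82%). HGD at 8 weeks had 3 lower (4.01%) and 1 higher (2.68%), and the complex IV median at 8 weeks was -0.13. With probe sets averaged, the inflamed medians of complexes I and II were -0.33 and -0.50 and LGD had 3 lower. Without probe sets marked s, x or a, the counts of lower members were 39 in inflamed mucosa, 2 in LGD, 4 at 8 weeks and 2 in carcinoma, 18 were higher in LGD than in inflamed mucosa, 31 differed among groups and 1 rose at 8 weeks. The medians then were -0.30 (complex I, inflamed), -0.52 (II, inflamed), -0.17 and -0.19 (II and V, 8 weeks) and -0.20 (IV, carcinoma). The count of members higher at 8 weeks was also 1 with no intensity trend (4 lower) or only the 2 groups. It was 1 as well with a pseudocount of 64 or quantile normalization, against 4.52% and 6.07% of all genes tested. With only the 2 groups, LGD had 0 lower, HGD at 6 weeks 2 higher and 1 lower, and LGD against inflamed mucosa 11 higher and 1 lower. The cause of these shifts was not tested beyond the change in arrays or probe sets that each setting makes. A count given here without a share of all genes tested cannot be read as particular to the members.

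Leaving out single arrays gave 0 to 31 lower and 0 to 2 higher members in LGD, 0 to 8 lower and 0 to 2 higher at 8 weeks, and 24 to 42 higher in LGD than in inflamed mucosa. The median of complex II in inflamed mucosa then ranged from -0.80 to -0.57 and that of complex V at 8 weeks from -0.19 to -0.12. With the replicate block, LGD had 2 members lower and HGD at 8 weeks 3. No share of all genes tested stands beside the counts of this paragraph, so they cannot be read as particular to the members. The replicate numbers do not pair the arrays: deviations of same-numbered arrays correlated at -0.46 to 0.33 over 45 pairs, against -0.39 to 0.38 over 90 other pairs. Dim signals limit what changes can be measured. Those of Cox6a2 and Ndufa4l2, of Cox7a1 on the inflamed arrays and of Cox6b2 on the normal arrays, lay near the table median. Cox8c and Ndufb1 were dim too but lay further above it.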

Other observations

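Some subunits could be read only on probe sets that the annotation pairs with several genes, and those stayed outside the tests. The probe sets shared by Ndufb4 and its relatives Ndufb4b and Ndufb4c read 11.36 ± 0.09 and 11.57 ± 0.13 (SD, n = 3) in normal mucosa and 10.78 ± 0.15 and 11.06 ± 0.07 in inflamed mucosa, differences of -0.58 and -0.51 on the log2 scale. That of Ndufs6 and Ndufs6b differed by -0.66, from 11.06 ± 0.07 to 10.40 ± 0.12 (SD, n = 3). For Ndufa11 and Ndufa11b the brighter probe set differed by -0.01, and for Ndufs5 and a pseudogene by -0.22. In carcinoma these differences from normal mucosa were -0.14 and -0.25 for the Ndufb4 probe sets, -0.17 for Ndufs6, -0.02 for Ndufa11 and -0.13 for Ndufs5.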
